A study of Rattus norvegicus with 9 samples.

Results

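The genes described here encode the collagens, the laminins and a set of glycoproteins and proteoglycans that are laid down in scar and in the matrix around brain cells. They were chosen by name: every collagen chain gene, every laminin chain gene and 17 further genes, Fn1, Postn, Fbln1, Fbln2, Fbln5, Lum, Dcn, Bgn, Vcan, Ncan, Bcan, Acan, Tnc, Tnr, Sparc, Thbs1 and Thbs2. The name rule found 72 of the 22890 genes in the tables, and 65 of them had enough counts to be tested among 14274 tested genes. RNA of rat striatum was sequenced in 9 libraries. The Sham group (3 libraries) is the control, the ICH group (3 libraries) had an intracerebral hemorrhage, which is bleeding into the brain tissue, and the EDB group (3 libraries) is named for edaravone dexborneol, a drug that combines a free radical scavenger with dexborneol. The labels give neither strain, age, sex, dose nor time. They do not say whether the EDB rats had a hemorrhage or how it was made. They are also silent on whether each library is from its own animal. The p-values therefore measure the spread between these libraries, which may be technical in part.

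The extracellular matrix of the brain is unlike that of other organs. Its bulk lies between the cells and consists of hyaluronan bound by lecticans (aggrecan, brevican, neurocan and versican) and cross-linked by tenascins, while collagen IV and laminin form the basement membranes of vessels and of the brain surface. Collagens I and III and periostin are scarce in healthy brain tissue. Like fibronectin, they are known from the meninges, from vessel walls and from the fibrotic core of scars. Astrocytes of the scar border are known to make chondroitin sulfate proteoglycans such as neurocan. In bulk tissue, fewer cells of a type and less RNA per cell cannot be told apart.

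Total counts ran from 14658110 to 17659936 per library. All 7 striatal neuron markers that were analysed had counts in every library, and their summed level was 5170 to 6517 CPM (counts scaled to a common library size) in ICH, 7188 to 11929 CPM in Sham and 7834 to 8743 CPM in EDB. All levels below are CPM scaled by TMM, a correction for library composition. They are given per library or as mean ± SD (n = 3). Changes are log2 fold changes ± SE from edgeR's quasi-likelihood test, and "rose" and "fell" are written only where the Benjamini-Hochberg adjusted p over all tested genes was under 0.05. Reads that fit several related chains can be assigned to the wrong one, and how much this happened was not measured.

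Some libraries stood apart. ICH 1 had the highest level of the 9 libraries for 28 of the 65 tested matrix genes, and for 10 of the 13 that rose in ICH. It had no counts of the Y-linked genes Kdm5d and Eif2s3y, which at 3 counts allows up to 0.175 CPM. The other 8 libraries had 10.3 to 18.5 CPM of Kdm5d and 3.35 to 9.91 CPM of Eif2s3y. By these genes ICH 1 differed in sex from the other 8 libraries and came from another animal than ICH 2 and ICH 3. The part of sex in the results was not tested. EDB 1 had a summed level of 11 meninges and fibroblast markers of 87.4 CPM, against 40.0 to 53.5 CPM in the other libraries, and Slc47a1, a transporter made by meningeal cells, stood there at 7.30 CPM and at no more than 0.708 CPM elsewhere. That list stood at 51.9 CPM in ICH 1, within the range of the other libraries. Slc47a1 had too few counts to be tested. Over all EDB libraries the 10 tested markers of the list had 6 positive and 4 negative changes against Sham. Of these 10, 0 had an unadjusted p under 0.05 in edgeR's test, beside 22.9% of all tested genes. EDB 3 had 7789 CPM of 12 choroid plexus markers, against 34.0 to 88.4 CPM in the other 8 libraries. Of the tested matrix genes, EDB 3 was highest for Col8a1, Col8a2, Col9a3, Lama2, Lama3, Lama5, Lamb2 and Thbs2, and EDB 1 for Acan, Col13a1, Col9a2, Lamb3 and Lamc3. The part of the raised markers in the results on these genes was not tested.

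**Figure D1:**
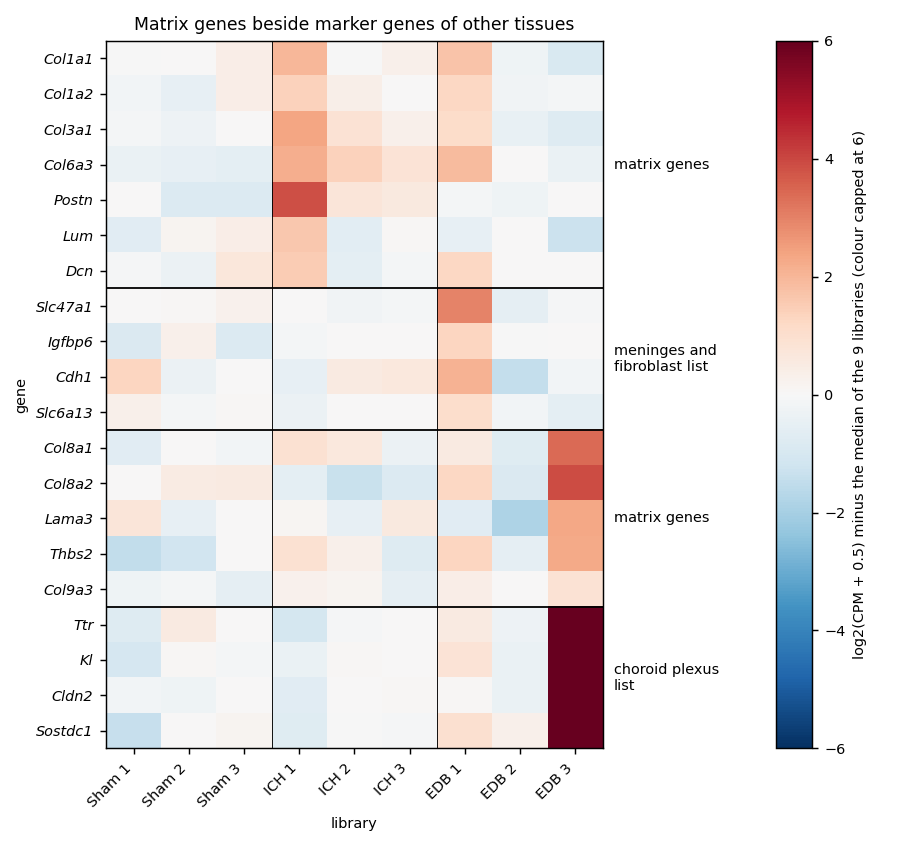
Matrix genes and marker genes (rows) in the 9 libraries (columns), coloured by log2(CPM + 0.5) minus the median of the 9 libraries, with the colour scale capped at 6. Col1a1, Col1a2, Col3a1 and Dcn are darkest in ICH 1 and EDB 1. The 4 meninges and fibroblast markers shown, picked from a list of 11, are highest in EDB 1. Col8a1, Col8a2, Lama3, Thbs2 and Col9a3 share their highest library, EDB 3, with the 4 choroid plexus markers shown, picked from a list of 12.

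Among the 72 genes, 7 were too low to be tested, namely Col6a4, Col6a5, Col10a1, Col17a1, Col24a1, Col26a1 and Col28a1. Their counts over the 9 libraries summed to between 11 and 68 each. Col26a1 and Col28a1 had the same count in each of the 9 libraries, 14 in all, so that these 2 rows cannot be read as separate measurements. The chain genes Col21a1 and Lamb4 were not analysed here.

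ICH and Sham were compared to show what changed in the striatum with the hemorrhage. Neurocan, versican, fibronectin, periostin, fibulin-1, fibulin-2, thrombospondin-1, biglycan and 4 collagen chains were higher in ICH, as was the laminin chain Lamc1. Of the 65 tested matrix genes 13 rose and 3 fell (24.6%), where 18.7% of all 14274 tested genes were called. In the upward direction this was 20% of the matrix genes against 11.4% of all tested genes, and in the downward direction it was 4.62% against 7.3%. The median log2 fold change of the 65 genes was 0.24, against 0.01 over all tested genes. The libraries of ICH and Sham did not overlap for 30 of the 65 genes (46.2%), where 35.6% of all tested genes did not overlap. With libraries scaled by their totals only, 16 matrix genes rose and 1 fell, and that scaling moved the median of all tested genes to 0.10. Without ICH 1, 6 matrix genes rose, which is 9.23% of the 65 and close to the 8.34% of all genes tested in that fit. Without Sham 2, 7 rose (10.8% against 10.6% of all genes), and without Sham 3, 7 rose (10.8% against 8.77%), so the gap between the matrix genes and all genes was smaller in each of these 3 fits. Summed over the 72 genes, the matrix took 0.427 ± 0.0171% of all counts in ICH, against 0.315 ± 0.0227% in Sham and 0.319 ± 0.0234% in EDB, and each ICH library lay above all 6 others. The sum is weighted towards abundant genes, such as Ncan (mean 168 CPM in Sham and 481 CPM in ICH) and Sparc (935 and 1184 CPM), which was not called. Summed by role, fibronectin, periostin and the fibulins stood at 192 CPM in Sham and 354 CPM in ICH. The fibrillar collagens stood at 321 and 317 CPM and the laminins at 291 and 300 CPM.

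**Figure D2:**
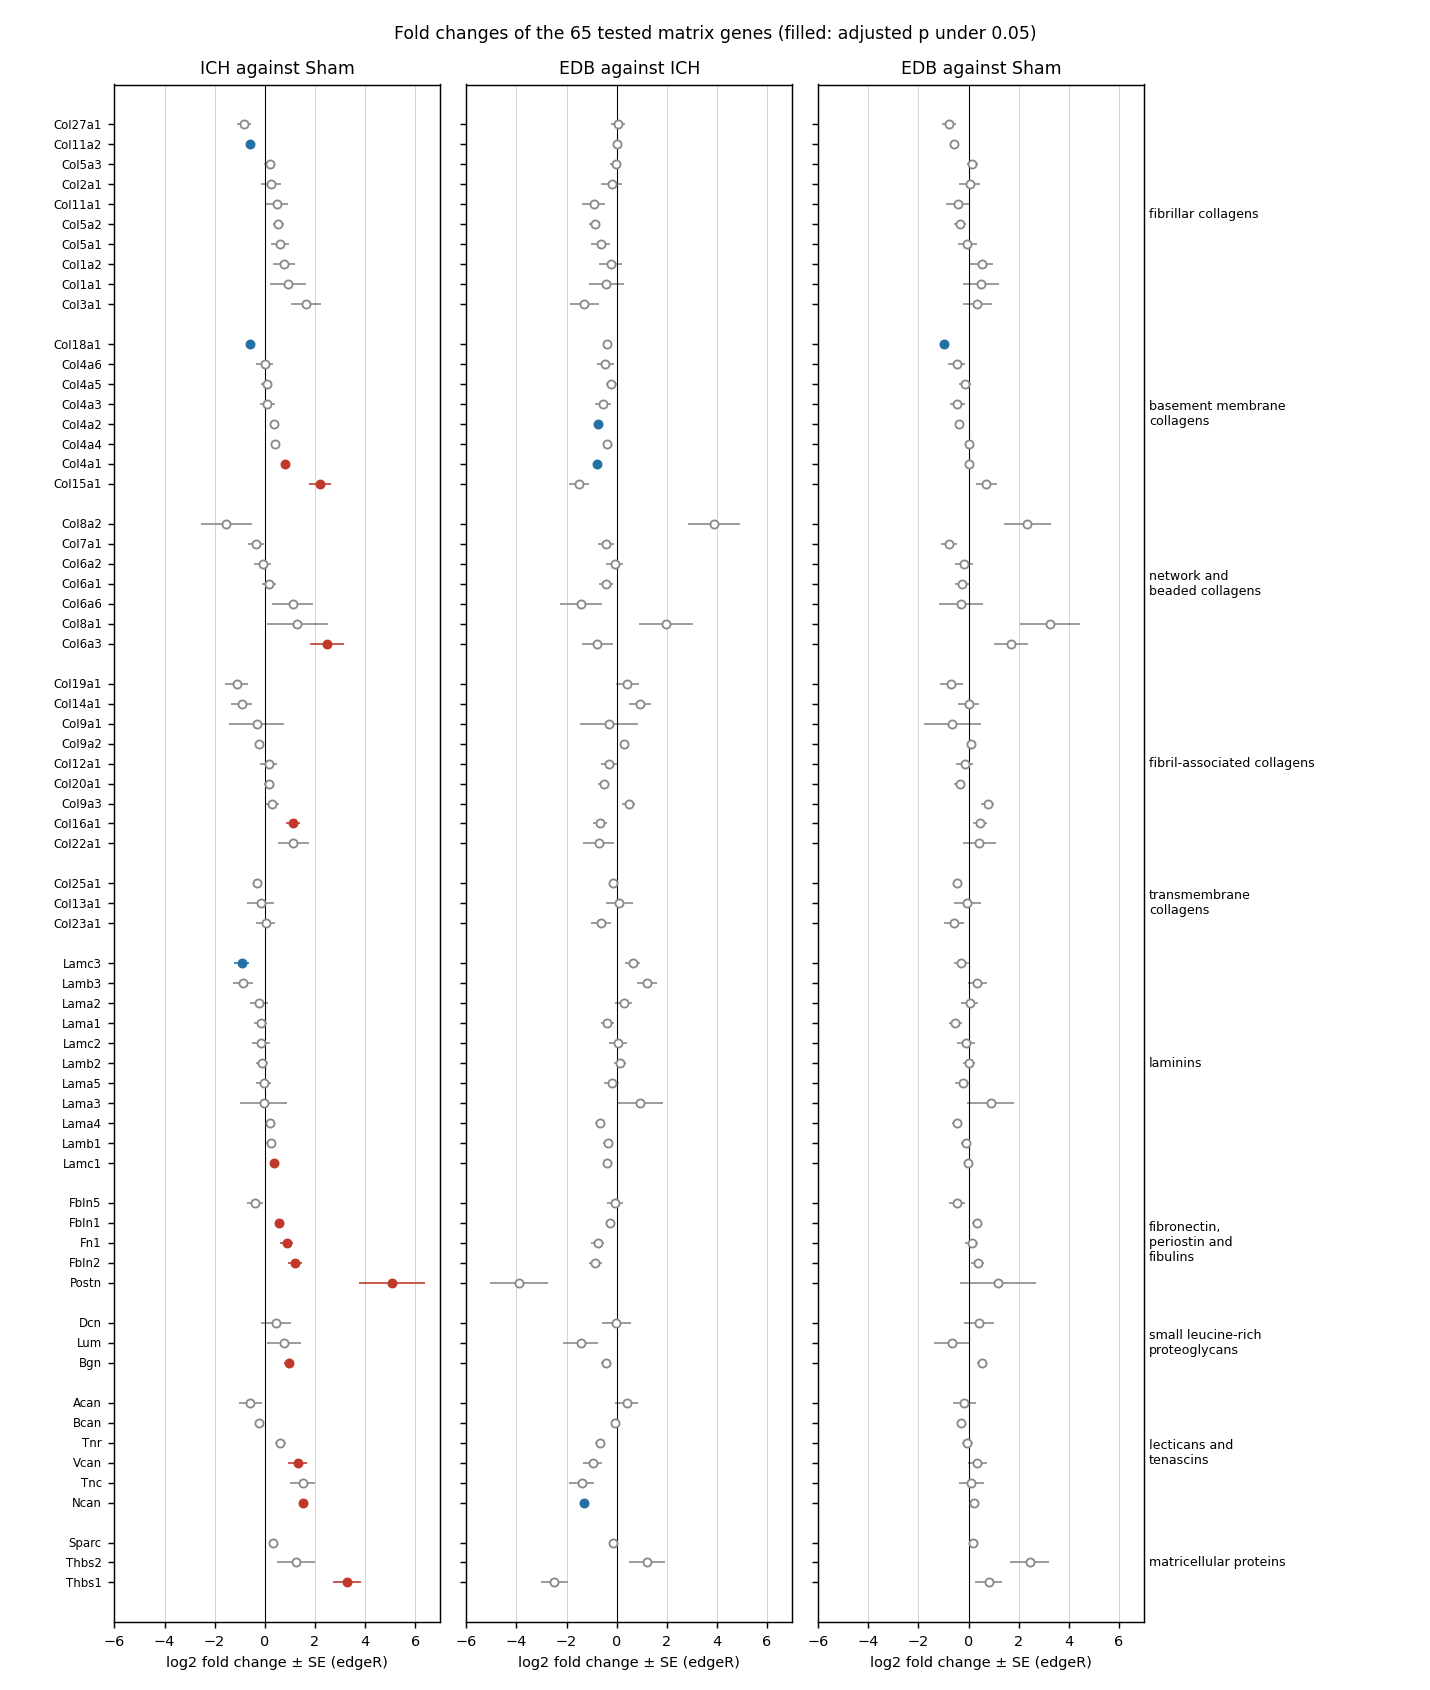
Log2 fold change ± SE (horizontal axis) of each of the 65 tested matrix genes (rows, grouped by role) in the 3 comparisons. Filled red points rose and filled blue points fell at an adjusted p under 0.05. The left panel holds 13 red and 3 blue points, the middle panel 3 blue points and the right panel 1 blue point.

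Neurocan (Ncan), a lectican of the diffuse brain matrix, had the smallest adjusted p of all matrix genes. Its level was 162, 183 and 159 CPM in Sham 1, 2 and 3, 431, 468 and 544 CPM in ICH 1, 2 and 3, and 193, 182 and 206 CPM in EDB 1, 2 and 3. Every ICH library was higher than any Sham or EDB library, and Sham and EDB overlapped. Ncan rose in ICH by 1.52 ± 0.12 on the log2 scale (2.86-fold, adjusted p = 3.05e-05), and the call was kept in all 18 alternative settings. The window around its start site is shown because Ncan had the smallest p of the matrix genes in both comparisons that involve ICH. It is taken from RefSeq on the assembly GRCr8, plus strand, chr16:19335657-19335956, from 250 bases before the start site to 50 bases after it, with matches to TATAAA or GGGCGG on either strand in capitals.
Ncan: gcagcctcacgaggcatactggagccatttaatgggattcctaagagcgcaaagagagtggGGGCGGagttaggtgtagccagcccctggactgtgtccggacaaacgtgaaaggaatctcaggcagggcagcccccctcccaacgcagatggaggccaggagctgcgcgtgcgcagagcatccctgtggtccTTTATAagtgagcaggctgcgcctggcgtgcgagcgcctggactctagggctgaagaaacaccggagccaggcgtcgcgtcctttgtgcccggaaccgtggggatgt

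Among the 6 lecticans and tenascins 2 rose (33.3%) and none fell, beside 11.4% risen and 7.3% fallen of all tested genes. Versican (Vcan), a lectican of developing and injured tissue, stood at 20.7, 11.6 and 23.2 CPM in Sham, 74.7, 33.6 and 29.4 CPM in ICH and 21.8, 32.4 and 16.7 CPM in EDB. ICH 1 was higher than any other library, and the remaining ICH libraries lay closer to Sham. Vcan rose by 1.31 ± 0.39 (adjusted p = 0.0376). The call was lost in 8 of 18 alternative settings. They include the fits without ICH 1 (0.77, adjusted p = 0.157), any of the 3 Sham libraries (adjusted p = 0.0602 to 0.119) or EDB 1, with limma-voom (adjusted p = 0.0524) and with no filter on low counts (adjusted p = 0.0656). Tenascin-C (Tnc), a glycoprotein of developing and injured tissue, stood at 33.7, 9.78 and 16.4 CPM in Sham and at 52.4, 66.1 and 52.3 CPM in ICH. The groups did not overlap, but the change of 1.51 ± 0.49 missed the threshold (adjusted p = 0.0585), and it was called in 7 of 18 alternative settings. Tenascin-R (Tnr), made by oligodendrocytes and some neurons, had 0.62 ± 0.21 (adjusted p = 0.0655) and was called in 3 of 18. Brevican (Bcan), the lectican of mature brain, stood at 734 ± 15.6 CPM in Sham and 627 ± 67.5 CPM in ICH, a change of -0.23 ± 0.13 (adjusted p = 0.278) although the groups did not overlap. Aggrecan (Acan), which marks perineuronal nets, was low throughout, at 3.18 ± 0.368 CPM in Sham and 2.14 ± 1.34 CPM in ICH (-0.57 ± 0.46, adjusted p = 0.450).

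Marker sums of the glial cells known to make these proteins were higher in ICH, but for astrocytes not most of the markers. The 8 astrocyte markers summed to 8468 to 8649 CPM in ICH while Sham had 3693 to 4381 CPM and EDB 5815 to 6737 CPM. Of the 8, 2 rose in ICH (25%), Gfap by 3.34 and Gja1 by 0.60, and Aldoc fell by 0.62 (12.5%). Of all tested genes 11.4% rose and 7.3% fell. The median log2 fold change of the 8 was 0.02, with 4 positive and 4 negative. The 8 markers of oligodendrocyte precursors summed to 1133 to 1485 CPM in ICH, 775 to 906 CPM in Sham and 1215 to 1326 CPM in EDB, and 6 of the 8 rose in ICH (75%, beside the same 11.4%). Their part in the changes of Ncan, Vcan, Tnc and Tnr was not tested.

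**Figure D3:**
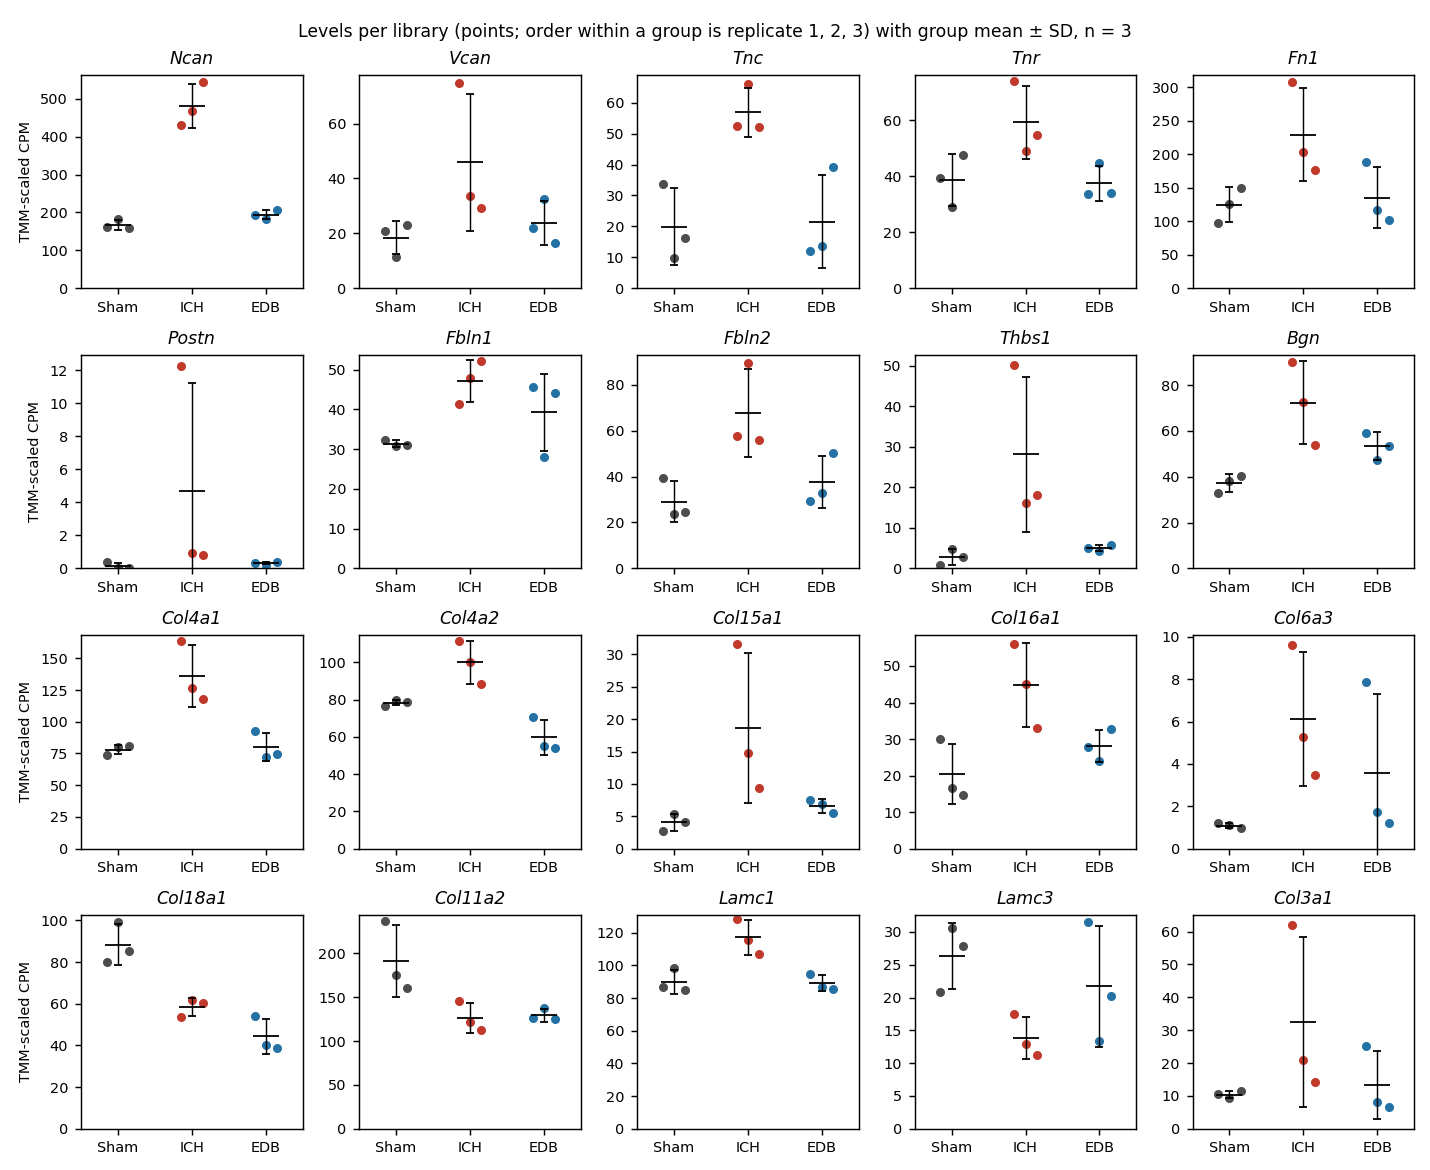
TMM-scaled CPM (vertical axis, starting at 0) of 20 matrix genes in the Sham, ICH and EDB libraries, with each point 1 library and bars for the group mean ± SD (n = 3; bars that would reach below 0 end at the axis). The ICH points of Ncan lie between 431 and 544, apart from all others, while those of Postn, Vcan, Thbs1, Col15a1 and Col3a1 spread widely because ICH 1 is the highest.

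Fibronectin, periostin and the fibulins were the group with the highest share of called genes, with 4 of 5 risen (80%) and none fallen. Of all tested genes 11.4% rose and 7.3% fell. The share rests on 5 genes, and in the fit without ICH 1 only Fbln2 of the 4 was still called. Fibronectin (Fn1), the glycoprotein to which many cells attach through integrins, stood at 97.9, 126 and 150 CPM in Sham, 308, 203 and 177 CPM in ICH and 188, 117 and 102 CPM in EDB. All ICH libraries lay above all Sham libraries, with the widest gap in ICH 1. Fn1 rose by 0.88 ± 0.27 (adjusted p = 0.0409). This call was lost without ICH 1 (0.61, adjusted p = 0.161), without ICH 2 and without any one of the Sham libraries (adjusted p = 0.0509 to 0.155). Fibulin-2 (Fbln2), which bridges fibronectin and elastic fibres, stood at 39.3, 23.7 and 24.4 CPM in Sham and 57.5, 89.6 and 56.0 CPM in ICH and rose by 1.21 ± 0.27 (adjusted p = 0.0101). Fibulin-1 (Fbln1), another fibronectin-binding fibulin, rose by 0.59 ± 0.18 from 31.4 ± 0.917 to 47.1 ± 5.38 CPM (adjusted p = 0.0431). Of these, Fbln2 kept its call in all 18 alternative settings, whereas Fn1 lost its call in 7, and Fbln1 in 9, among them each fit that left out 1 Sham or ICH library. Fibulin-5 (Fbln5), which helps assemble elastic fibres, stood at 6.35 ± 2.07 CPM in Sham and 4.85 ± 0.585 CPM in ICH (-0.39 ± 0.32, adjusted p = 0.452).

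Periostin (Postn), a matricellular protein of fibroblasts in wounds, rested on few counts. It had 6, 0 and 0 counts in Sham 1, 2 and 3, 210, 15 and 15 in ICH 1, 2 and 3, and 5, 4 and 6 in EDB 1, 2 and 3. In CPM this was 12.2 in ICH 1 and under 1 in each of the other libraries, so nearly all of the group's level came from that library. Postn rose in the fit by 5.07 ± 1.31 (adjusted p = 0.0210), which depends on how the counts of 0 are treated. The ratio of the summed counts was 34.7, with a 95% interval of 15.7 to 95.5 that covers counting error only. The call was lost without ICH 1 (2.67, adjusted p = 0.130), without Sham 2 (adjusted p = 0.0738), without Sham 3 (adjusted p = 0.0756) and with limma-voom (adjusted p = 0.0558), and DESeq2 gave no adjusted p. The 8 markers of microglia and macrophages, cells that enter and clear injured tissue, summed to 1932 to 2105 CPM in ICH, 423 to 473 CPM in Sham and 916 to 1626 CPM in EDB. Of the 8, 7 rose in ICH (87.5%, beside 11.4% of all tested genes). Their part in the changes of Fn1, Fbln2, Postn and Thbs1 was not tested.

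Thrombospondin-1 (Thbs1), which activates latent TGF-beta and is known to restrain vessel growth, had the largest fold change among the called matrix genes with a mean of at least 5 CPM. Its level was 0.937, 4.85 and 2.90 CPM in Sham, 50.3, 16.2 and 18.2 CPM in ICH and 4.95, 4.31 and 5.81 CPM in EDB. Each ICH library lay well above every Sham and EDB library. Thbs1 rose by 3.29 ± 0.56 (9.78-fold, adjusted p = 0.00227), and the change was 2.58 without ICH 1 (adjusted p = 0.00723). Sparc, a collagen-binding protein made by astrocytes and vessels, stood at 935 ± 66.9 CPM in Sham and 1184 ± 95.8 CPM in ICH, without overlap, and its change of 0.34 ± 0.12 missed the threshold (adjusted p = 0.0754). Thrombospondin-2 (Thbs2), a relative of Thbs1 made by fibroblasts, had 1.25 ± 0.77 (adjusted p = 0.304).

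Biglycan (Bgn), a small leucine-rich proteoglycan that binds collagen, stood at 33.0, 38.2 and 40.5 CPM in Sham, 90.3, 72.5 and 54.0 CPM in ICH and 59.3, 47.1 and 53.5 CPM in EDB. All ICH libraries lay above all Sham libraries, and EDB 1 lay above ICH 3. Bgn rose by 0.96 ± 0.18 (adjusted p = 0.00423) and kept the call in all 18 alternative settings. Its relatives decorin (Dcn) and lumican (Lum), which regulate the width of collagen fibrils, were not called. Dcn stood at 12.99 CPM in ICH 1 and 10.8 CPM in EDB 1, and at no more than 7.15 CPM elsewhere, and Lum at 7.52 CPM in ICH 1 and no more than 2.97 CPM elsewhere.

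Of the 8 basement membrane collagens 2 rose (25%) and 1 fell (12.5%), beside 11.4% risen and 7.3% fallen of all tested genes. Collagen IV is a heterotrimer, most often of 2 chains from Col4a1 and 1 chain from Col4a2, whose genes lie head to head and share a promoter region. Their start-site windows in RefSeq, assembly GRCr8, are shown because both genes carry the results for ICH and EDB below. Col4a1 is read from chr16:84885347-84885646 on the plus strand and Col4a2 from chr16:84885471-84885770 on the minus strand. There are 76 bases between the start sites, and the windows share 176 bases. Capitals mark matches to CCAAT or GGGCGG on either strand.
Col4a1: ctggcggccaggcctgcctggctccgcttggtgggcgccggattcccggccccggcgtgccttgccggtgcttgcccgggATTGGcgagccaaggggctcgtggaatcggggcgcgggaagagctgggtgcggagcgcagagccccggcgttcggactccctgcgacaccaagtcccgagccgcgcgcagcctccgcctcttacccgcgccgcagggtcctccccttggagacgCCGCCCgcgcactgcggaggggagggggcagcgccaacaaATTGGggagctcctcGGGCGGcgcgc
Col4a2: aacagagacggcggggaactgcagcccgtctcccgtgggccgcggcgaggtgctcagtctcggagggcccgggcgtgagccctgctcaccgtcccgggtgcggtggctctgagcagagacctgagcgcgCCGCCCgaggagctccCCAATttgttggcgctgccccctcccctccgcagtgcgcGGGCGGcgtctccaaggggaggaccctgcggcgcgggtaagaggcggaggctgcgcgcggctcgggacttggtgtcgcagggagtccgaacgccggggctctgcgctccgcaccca

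In the shared stretch of the Col4a1 and Col4a2 windows the same CCAAT match and the same pair of GGGCGG matches appear in both, on opposite strands. Windows were found for 56 of the 72 matrix genes. Among these, 57.1% held GGGCGG, the letters of a GC box, against 33.1% of all 33469 promoter windows, 33.9% held CCAAT against 37.5%, and 14.3% held TATAAA against 14.2%. TGANTCA, the letters bound by AP-1, was in 3.57% against 7.33%. Both strands were searched, and a match is a description of letters only.

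Col4a1 stood at 73.8, 79.8 and 80.5 CPM in Sham, 164, 126 and 118 CPM in ICH and 92.5, 72.6 and 74.5 CPM in EDB. Every ICH library lay above every Sham and EDB library. Col4a1 rose by 0.80 ± 0.15 (1.74-fold, adjusted p = 0.00356). Col4a2 stood at 76.8, 79.8 and 78.6 CPM in Sham, 112, 100.3 and 88.2 CPM in ICH and 70.4, 54.8 and 54.0 CPM in EDB. The 3 groups were ordered without overlap, EDB below Sham below ICH, but the change of 0.35 ± 0.14 in ICH was not called (adjusted p = 0.0983), except with scaling by library totals only (adjusted p = 0.0340).

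The proportion of the 2 genes was compared directly, by the ratio of their counts in each library. The ratio of Col4a1 to Col4a2 counts was 0.960, 1 and 1.02 in Sham, 1.47, 1.26 and 1.34 in ICH and 1.31, 1.32 and 1.38 in EDB. All 6 ICH and EDB libraries lay above all 3 Sham libraries, while ICH and EDB overlapped. The difference in the mean log2 ratio was 0.44 between ICH and Sham and 0.43 between EDB and Sham, each with an exact two-sided permutation p of 0.1, the smallest that 3 against 3 libraries allow (adjusted p = 0.3 over 9 tests). The ratio does not depend on how libraries are scaled. Its level also reflects the lengths of the 2 genes, so only its differences between libraries are described. For the other head-to-head pairs, Col4a3 to Col4a4 had ratios of 0.313 ± 0.0484 in Sham, 0.256 ± 0.0548 in ICH and 0.227 ± 0.0241 in EDB, and Col4a5 to Col4a6 had 3.94 ± 0.281, 4.16 ± 0.522 and 5.35 ± 1.59. Of these, only EDB and Sham for Col4a3 to Col4a4 did not overlap (exact permutation p = 0.1, adjusted p = 0.3).

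**Figure D4:**
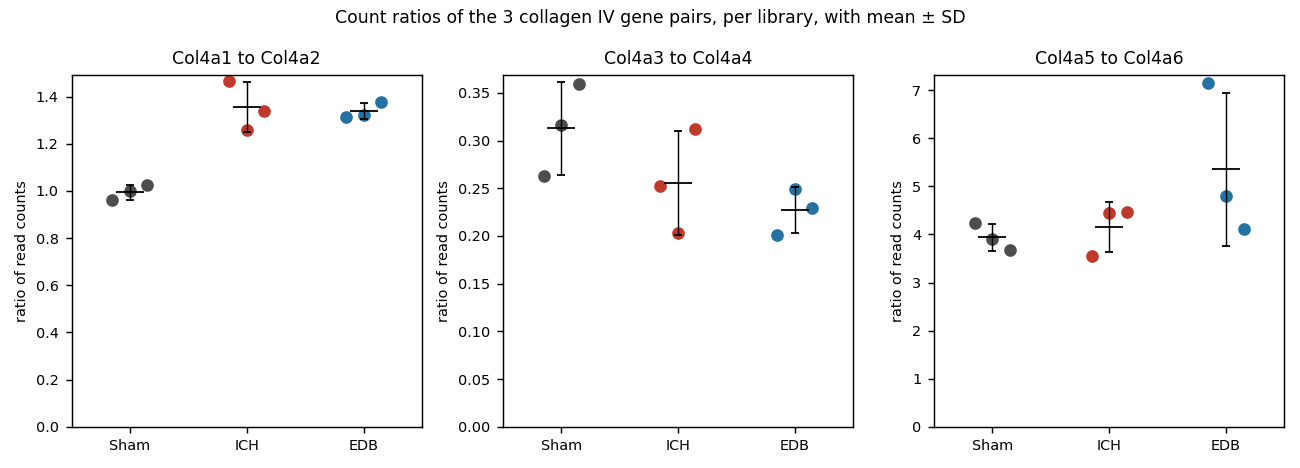
Ratio of read counts (vertical axis, starting at 0) of the 3 head-to-head collagen IV gene pairs in each library, with group mean ± SD (n = 3). For Col4a1 to Col4a2 the Sham points lie between 0.960 and 1.02 and the ICH and EDB points between 1.26 and 1.47.

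The 2 multiplexins, collagens of vessel basement membranes that carry heparan sulfate or chondroitin sulfate, went in opposite directions. Col15a1 stood at 2.69, 5.33 and 4.10 CPM in Sham, 31.6, 14.8 and 9.39 CPM in ICH and 7.48, 6.89 and 5.44 CPM in EDB. It rose by 2.20 ± 0.42 (4.60-fold, adjusted p = 0.00432), and by 1.58 without ICH 1 (adjusted p = 0.0126). Col18a1, from which endostatin is cut, stood at 80.3, 99.4 and 85.5 CPM in Sham, 53.7, 61.8 and 60.3 CPM in ICH and 53.9, 40.3 and 38.6 CPM in EDB. Every ICH and EDB library lay below every Sham library, and Col18a1 fell by 0.59 ± 0.15 in ICH (adjusted p = 0.0183). That call was lost without ICH 1 (adjusted p = 0.0711) and without Sham 2. Vessel markers stood beside it as follows. The 9 endothelial markers summed to 361 to 568 CPM in Sham, 293 to 372 CPM in ICH and 299 to 312 CPM in EDB, with 1 of 9 fallen (11.1%) in each comparison with Sham. Of the 10 pericyte and smooth muscle markers 4 fell (40%) and 2 rose (20%) in ICH, and 4 fell (40%) in EDB against Sham. Of all tested genes 7.3% fell and 11.4% rose in ICH, and 2.71% fell in EDB against Sham. Their part in the fall of Col18a1 was not tested.

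None of the 10 tested fibrillar collagens rose and 1 fell (10%), beside 11.4% risen and 7.3% fallen of all tested genes. Their median log2 fold change was 0.52, with 8 positive and 2 negative values. At an unadjusted p under 0.05 there were 4 of the 10 (40%), beside 31.5% of all tested genes. Collagen I, the main fibre of scar outside the brain, is made of Col1a1 and Col1a2 chains. Col1a1 stood at 14.4, 14.8 and 19.95 CPM in Sham, 60.8, 14.5 and 18.2 CPM in ICH and 49.8, 12.3 and 7.75 CPM in EDB. Only ICH 1 and EDB 1 lay above the Sham range, and the change in ICH was 0.93 ± 0.71 (adjusted p = 0.430), and -0.0003 without ICH 1. Col1a2 followed with 48.5 CPM in ICH 1 and 43.6 CPM in EDB 1, and 12.7 to 24.4 CPM in the 7 further libraries (0.77 ± 0.46, adjusted p = 0.288). Collagen III (Col3a1), found with collagen I in vessel walls and early scar, stood at 10.6, 9.23 and 11.5 CPM in Sham and 62.1, 21.1 and 14.4 CPM in ICH. These groups did not overlap, and its change of 1.64 ± 0.59 (adjusted p = 0.0815) was called in 4 of 18 alternative settings and was 0.77 without ICH 1 (adjusted p = 0.362). Col11a2, a chain of cartilage collagen XI that was nonetheless at 191 ± 40.6 CPM in Sham striatum, fell by 0.59 ± 0.16 to 127 ± 17.1 CPM in ICH (adjusted p = 0.0234). That call was lost without Sham 1, without ICH 2 and without ICH 3, and with library totals only (adjusted p up to 0.0859). Col27a1, a fibrillar collagen of cartilage, had -0.82 ± 0.29 (adjusted p = 0.0703) without overlap of the groups.

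Of the 7 tested network and beaded collagens Col6a3 alone was called (14.3%, beside 18.7% of all tested genes). Col6a3, the long chain of the beaded collagen VI, stood at 1.19, 1.09 and 0.991 CPM in Sham, 9.62, 5.28 and 3.45 CPM in ICH and 7.85, 1.74 and 1.19 CPM in EDB. It rose by 2.48 ± 0.68 (adjusted p = 0.0269). The call was lost without ICH 1 (1.99, adjusted p = 0.102), without ICH 2, without any one of the Sham libraries (adjusted p = 0.0747 to 0.0844) and with limma-voom (adjusted p = 0.0521), in 6 of 18 alternative settings. Its partner chains in the trimer, Col6a1 (0.16 ± 0.27, adjusted p = 0.760) and Col6a2 (-0.09 ± 0.35, adjusted p = 0.904), were not called. Of the 9 fibril-associated collagens 1 rose (11.1%, near the 11.4% risen of all tested genes). Col16a1 stood at 30.0, 16.6 and 14.8 CPM in Sham and 56.1, 45.2 and 33.0 CPM in ICH and rose by 1.13 ± 0.27 (adjusted p = 0.0155), a call lost on leaving out Sham 2, Sham 3 or ICH 1 (adjusted p = 0.0543, 0.0589 and 0.0653). Of the 3 transmembrane collagens none was called, and Col25a1, the neuronal collagen first known from amyloid plaques, had -0.30 ± 0.16 (adjusted p = 0.229).

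The laminins are the cross-shaped trimers of alpha, beta and gamma chains that organise basement membranes. Of 11 chains 1 rose and 1 fell (9.09% each), near the 11.4% risen and 7.3% fallen of all tested genes. Their median log2 fold change was -0.11, with a range from -0.93 to 0.38. Lamc1, the gamma chain of most laminins, stood at 86.6, 98.3 and 84.7 CPM in Sham, 129, 116 and 107 CPM in ICH and 94.6, 87.0 and 85.5 CPM in EDB. It rose by 0.38 ± 0.12 (adjusted p = 0.0409), and the call was lost in 12 of 18 alternative settings, among them the fits without Sham 1, Sham 3, ICH 1, ICH 2 or any one EDB library (adjusted p up to 0.181). Lamc3, a gamma chain of fewer tissues, fell by 0.93 ± 0.29 from 26.4 ± 5.04 to 13.9 ± 3.20 CPM (adjusted p = 0.0495), and that call was lost in 10 of 18, among them the fits without Sham 2, Sham 3, EDB 3 or any one ICH library. Lama2, the alpha chain of astrocyte and muscle basement membranes, had -0.24 ± 0.35 (adjusted p = 0.715). Its highest level was 17.5 CPM in EDB 3, with at most 12.8 CPM elsewhere. Lamb1, the beta chain of early and vascular laminins, had 0.24 ± 0.21 (adjusted p = 0.491).

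EDB and ICH were compared as the groups with and without the drug's name. Neurocan and both chains of the common collagen IV fell in EDB, and no matrix gene was called as risen. The largest positive change, that of Col8a2, was 3.89 ± 1.03 (adjusted p = 0.110) and came with EDB 3, which held 46.9 CPM while EDB 1 and EDB 2 held 7.05 and 1.26 CPM and ICH 0.755 to 1.63 CPM. Of the 65 tested genes 0 rose and 3 fell (4.62%), where 0.631% of all tested genes fell, 0.056% rose and 0.687% were called in either direction. At an unadjusted p under 0.05 there were 20 matrix genes (30.8%, against 16.2% of all tested genes). DESeq2 called 7 as fallen (10.8%, against 3.37% of all genes) and 1 as risen (1.54%, against 1.51%). The median log2 fold change of the 65 genes was -0.37, against -0.03 over all tested genes, with 48 negative and 17 positive values. Groups did not overlap for 18 of the 65 (27.7%), where 25.2% of all tested genes did not overlap. Without EDB 1 and EDB 3 together, EDB had 1 library, which was assumed to vary like the other groups. In that fit no matrix gene and 6 of all genes were called, and the loss of calls cannot be told apart from the loss of libraries. Without Sham 2, 5 matrix genes fell, and 1 fell when any other single library except EDB 1 was left out.

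Ncan fell by 1.31 ± 0.12 in EDB (2.48-fold, adjusted p = 0.00322), from 481 ± 57.6 to 194 ± 11.99 CPM. This call was kept in 17 of 18 alternative settings and was lost without EDB 1 and EDB 3 together, with a log2 fold change of -1.40 (adjusted p = 0.0789). Col4a1 fell by 0.77 ± 0.15 (adjusted p = 0.0483) from 136 ± 24.4 to 79.8 ± 10.97 CPM, and Col4a2 by 0.74 ± 0.14 (adjusted p = 0.0439) from 100.035 ± 11.7 to 59.8 ± 9.24 CPM. Both collagen calls lay near the threshold: that of Col4a1 was lost in 12 of 18 alternative settings and that of Col4a2 in 10 of 18, both of them on leaving out any one ICH library, Sham 1 or 3, or EDB 2 or 3, and that of Col4a1 also without EDB 1. The log2 fold changes lay between -0.91 and -0.61 for Col4a1 and between -0.88 and -0.66 for Col4a2.

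Thbs1 had the next smallest adjusted p, with a change of -2.49 ± 0.53 (adjusted p = 0.0645) and no overlap between the groups, and it was called in 3 of 18 alternative settings. Groups did not overlap for 18 matrix genes (27.7%), near the 25.2% of all tested genes. Over all tested genes 7678 changes were negative and 6596 positive, and their split among genes without overlap was not counted. Of the 18 matrix genes 15 were lower in EDB and 3 higher. Among the lower ones without a call were Col15a1 (-1.49 ± 0.41, adjusted p = 0.111), the fibrillar chain Col5a2 (-0.88 ± 0.22, adjusted p = 0.0965) and the vessel laminin chain Lama4 (-0.68 ± 0.18, adjusted p = 0.101). The 3 higher ones, none of them called, were the epithelial laminin chain Lamb3 (1.22 ± 0.40, adjusted p = 0.177) and the fibril-associated collagens Col14a1 (0.93 ± 0.43, adjusted p = 0.319) and Col9a2 (0.30 ± 0.16, adjusted p = 0.375). The brain lecticans and tenascins other than Ncan were not called. Tnc had -1.40 ± 0.49 (adjusted p = 0.203), Tnr -0.66 ± 0.21 (adjusted p = 0.163), Vcan -0.96 ± 0.38 (adjusted p = 0.248), Bcan -0.06 ± 0.13 (adjusted p = 0.869) and Acan 0.40 ± 0.46 (adjusted p = 0.710).

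The genes of scar fibre and of the cell-adhesive matrix were not called between EDB and ICH, which does not show that their differences were small. Fn1 had -0.76 ± 0.26 (adjusted p = 0.196), Col3a1 -1.29 ± 0.58 (adjusted p = 0.308), Col1a1 -0.42 ± 0.70 (adjusted p = 0.806) and Col1a2 -0.24 ± 0.45 (adjusted p = 0.823). Without ICH 1 the sign of the last 2 changed, to 0.51 for Col1a1 and 0.28 for Col1a2. Sparc had -0.15 ± 0.12 (adjusted p = 0.588), Lamc1 -0.40 ± 0.12 (adjusted p = 0.132), Lamb1 -0.35 ± 0.21 (adjusted p = 0.441) and Lama2 0.28 ± 0.35 (adjusted p = 0.734).

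EDB and Sham were compared last, without a label that tells whether EDB rats bled. Col18a1 alone was called: of 65 matrix genes 0 rose and 1 fell (1.54%), where 7.66% of all tested genes were called, 4.95% as risen and 2.71% as fallen. At an unadjusted p under 0.05 there were 13 matrix genes (20%, against 22.9% of all tested genes). DESeq2 called 3 as risen (4.62%, against 7.33% of all genes) and 2 as fallen (3.08%, against 5.28%). The median log2 fold change of the 65 genes was -0.01, as it was over all tested genes, and groups did not overlap for 12 (18.5%) against 26.1% of all tested genes. This comparison shares its EDB libraries with the previous one and its Sham libraries with the first. Col18a1 fell by 0.997 ± 0.15 from 88.4 ± 9.90 to 44.3 ± 8.39 CPM (adjusted p = 0.00281) and kept its call in all 18 alternative settings. Next by p came Col11a2 (-0.56 ± 0.16, adjusted p = 0.0543), which had no overlap and was called in 3 of 18, Col25a1 (-0.45 ± 0.16, adjusted p = 0.112) and Bgn (0.52 ± 0.18, adjusted p = 0.112), both without overlap, and Thbs2, Col9a3 and Col8a1, which are described with EDB 3.

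The brain matrix genes had small differences between EDB and Sham. Ncan had 0.20 ± 0.12 (adjusted p = 0.361, 95% interval -0.06 to 0.47), Bcan -0.28 ± 0.13 (adjusted p = 0.237), Vcan 0.35 ± 0.38 (adjusted p = 0.640), Tnc 0.11 ± 0.49 (adjusted p = 0.925), Tnr -0.04 ± 0.21 (adjusted p = 0.930) and Acan -0.17 ± 0.46 (adjusted p = 0.861). Col4a1 had 0.03 ± 0.15 (adjusted p = 0.923) and Col4a2 -0.39 ± 0.14 (adjusted p = 0.109), the latter without overlap of the groups. A missed threshold does not show equal levels, and the 95% interval of Tnc ran from -0.98 to 1.20.

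Fibre genes and laminins were likewise not called. Col1a1 had 0.51 ± 0.71 (adjusted p = 0.729), Col1a2 0.52 ± 0.46 (adjusted p = 0.545) and Col3a1 0.35 ± 0.59 (adjusted p = 0.774), and all 3 were negative without EDB 1, at -0.70, -0.12 and -0.49. Fn1 had 0.12 ± 0.26 (adjusted p = 0.829), Sparc 0.19 ± 0.12 (adjusted p = 0.381), Lama2 0.04 ± 0.35 (adjusted p = 0.958), Lamb1 -0.11 ± 0.21 (adjusted p = 0.802) and Lamc1 -0.01 ± 0.12 (adjusted p = 0.961).

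The largest positive differences between EDB and Sham, in Col8a1, Thbs2 and Col8a2, came with EDB 3, and the genes of this paragraph were singled out after their values were seen. Col8a1 and Col8a2, chains of the network collagen VIII of vessels and of the eye, reached 11.2 and 46.9 CPM in EDB 3, whereas the remaining 8 libraries had 0.180 to 1.57 CPM of Col8a1 and 0.755 to 7.05 CPM of Col8a2. The laminin chain Lama3 stood there at 21.7 CPM against 0.719 to 6.75 CPM, Thbs2 at 17.5 CPM against 0.812 to 8.47 CPM and Col9a3 at 51.4 CPM against 18.7 to 36.3 CPM. In the same library the choroid plexus genes Ttr (transthyretin) and Kl (Klotho) reached 6680 and 204 CPM, and elsewhere at most 52.4 and 3.96 CPM. The changes in EDB against Sham were 3.25 ± 1.19 for Col8a1 (adjusted p = 0.128), 2.35 ± 0.94 for Col8a2 (adjusted p = 0.167), 2.44 ± 0.77 for Thbs2 (adjusted p = 0.0825) and 0.77 ± 0.26 for Col9a3 (adjusted p = 0.0992), and the part of the choroid plexus transcripts in them was not tested. Col8a1, Col8a2 and Thbs2 were called as risen without EDB 2, and none of them without EDB 3.

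All 13 genes that rose in ICH against Sham had a lower mean in EDB than in ICH, and for 12 of them the EDB mean lay between those of Sham and ICH. Of the 13, 2 fell in EDB against ICH and 0 were called in EDB against Sham. These genes were chosen by their ICH values, so a lower mean in another group is a description and is not support for a difference.

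Lists of genes that work with this matrix were set beside it. Enzymes and chaperones that modify, fold and cross-link collagen had 8 of 31 tested genes risen (25.8%) and 0 fallen in ICH, beside 11.4% risen and 7.3% fallen of all tested genes. They included P4hb, the beta subunit of prolyl hydroxylase (193, 223 and 173 CPM in Sham, 399.5, 414 and 389 CPM in ICH; 1.03 ± 0.13, adjusted p = 0.000277), the collagen galactosyltransferase Colgalt1 (1.08 ± 0.14), the chaperone Fkbp10 (1.02 ± 0.14) and the prolyl isomerase Ppib (0.62 ± 0.10). In EDB against ICH 0 of the 31 were called, and 8 (25.8%) had an unadjusted p under 0.05, beside 16.2% of all tested genes. In EDB against Sham 3 rose (9.68%, beside 4.95% of all tested genes), namely Colgalt1 (0.76 ± 0.14), Ppib (0.50 ± 0.10) and P4hb (0.61 ± 0.13).

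Receptors of the matrix had 7 of 25 tested genes risen (28%) and 1 fallen (4%) in ICH, beside the same 11.4% and 7.3% of all tested genes. The hyaluronan receptor Cd44 stood at 18.7, 16.7 and 17.8 CPM in Sham, 86.3, 50.4 and 59.8 CPM in ICH and 20.3, 16.8 and 26.7 CPM in EDB. Cd44 rose in ICH (1.88 ± 0.22, adjusted p = 0.000204) and fell in EDB against ICH (-1.62 ± 0.22, adjusted p = 0.0197). The heparan sulfate proteoglycan Sdc1 rose in ICH (3.34 ± 0.38) and fell in EDB against ICH (-2.38 ± 0.35, adjusted p = 0.0244). The fibronectin receptor chain Itga5 (1.84 ± 0.25) and the vitronectin receptor chain Itgb5 (0.87 ± 0.13) rose in ICH as well. In EDB against Sham 3 rose (12%, beside 4.95%), namely Itgb5 (0.95 ± 0.13), the collagen receptor Ddr1 (0.83 ± 0.19) and Itgb3 (1.65 ± 0.40), and 0 fell.

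Relatives of the matricellular genes had 4 of 12 tested genes risen (33.3%, beside 11.4% of all tested genes) and 0 fallen in ICH. Osteopontin (Spp1) rose by 10.69 ± 1.06, the collagen-binding Tgfbi by 2.06 ± 0.28, Spon1 by 0.73 ± 0.15 and Thbs4 by 2.31 ± 0.48. The median log2 fold change of the 12 was -0.11, with 6 positive and 6 negative values. The 15 genes of the list found in the files summed to 3621 CPM in ICH 1. Their sums were 1367 CPM in ICH 2, 1546.5 CPM in ICH 3 and 1665 to 2186 CPM in Sham. In EDB against ICH 2 of the 12 tested genes fell (16.7%, beside 0.631% of all tested genes), Thbs4 by 2.83 ± 0.50 (adjusted p = 0.0418) and Tgfbi by 1.37 ± 0.27 (adjusted p = 0.0493). In EDB against Sham 1 of the 12 rose (8.33%, beside 4.95% of all tested genes), namely Spp1 (7.10 ± 0.998). Elastic fibre and other leucine-rich genes had 4 of 18 risen (22.2%) and 1 fallen (5.56%) in ICH, with Emilin1 at 1.28 ± 0.17, Efemp2 at 1.45 ± 0.20, Emilin2 at 1.80 ± 0.40 and Fbn1 at 1.15 ± 0.28. Of these 18, 0 were called in EDB against ICH (4 at an unadjusted p under 0.05, 22.2%, beside 16.2% of all tested genes). In EDB against Sham 2 of them rose (11.1%, beside 4.95% of all tested genes).

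Other basement membrane genes had 1 of 13 risen (7.69%) and 2 fallen (15.4%) in ICH, where 11.4% and 7.3% of all tested genes were so called. Smoc1 rose (1.26 ± 0.25), while Fras1 (-0.77 ± 0.13) and agrin (Agrn, -0.48 ± 0.11, adjusted p = 0.0124) fell. In EDB against Sham 2 fell (15.4%, beside 2.71% of all tested genes), namely the collagen IV cross-linking peroxidase Pxdn (-1.24 ± 0.19, adjusted p = 0.00332) and Agrn (-0.44 ± 0.11, adjusted p = 0.0370). In EDB against ICH 0 of the 13 were called (6 at an unadjusted p under 0.05, 46.2%, beside 16.2% of all tested genes). Genes of hyaluronan, its link proteins and chondroitin sulfate synthesis had 3 of 19 risen (15.8%, near the 11.4% of all tested genes) and 0 fallen in ICH. The 3 were the sulfotransferase Chst12 (0.76 ± 0.15), the chondroitin synthase Chsy1 (0.49 ± 0.13) and the proteoglycan Cspg4 (0.60 ± 0.14). In the EDB comparisons 0 of the 19 were called. At an unadjusted p under 0.05 there were 7 in each (36.8%), beside 16.2% of all tested genes against ICH and 22.9% against Sham. Parvalbumin interneurons are the cells that carry most perineuronal nets. Their 7 analysed markers, which did not include Pvalb itself, summed to 348 to 378 CPM in ICH, 393 to 536 CPM in Sham and 457 to 601 CPM in EDB. Of the 7, 1 fell in ICH (14.3%, beside 7.3% of all tested genes).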

How the data were processed

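For each of 9 rat striatum libraries the authors deposited a table of raw gene counts, made with cutadapt, HISAT2 and HTSeq on Rnor_6.0, and limma is also named, per the submitters' processing notes; no source used here gives versions, roles or strand setting. The tests ran in edgeR 4.0.16 under R 4.3.3: filterByExpr by group, TMM, 1 model with a mean per group for all 9 libraries, glmQLFit with robust dispersions, the quasi-likelihood F test and Benjamini-Hochberg adjustment over 14274 genes. CPM are counts over TMM-scaled library totals. A count of 0 allows up to 3 counts; intervals of count ratios are exact at 95%, and both cover counting error only. Matrix genes were matched by symbol as the files give them. Companion and marker genes absent under their symbol were looked up by RefSeq synonym or Ensembl identifier, which found Crtap under Crtapl1. RefSeq tables of GRCr8 gave the promoter windows. Members, lists and the rule for full statistics were chosen with earlier results of these data known. The rule takes, in ICH against Sham, called members with a mean of at least 5 CPM and the 12 largest changes, in the other comparisons the 8 smallest p, and 16 fixed genes throughout. Companion genes are up to 4 of smallest p per list. Alternatives used RLE, library totals, other filters, DESeq2 1.42.0, limma-voom (limma 3.58.1), 6 libraries, a replicate block and fewer libraries; leaving out EDB 1 with EDB 3 was added after seeing the data. The fit was tested on simulated data.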

Additional observations from a re-analysis of the deposited data

How the results depend on the processing

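None of the 20 calls on matrix genes turned direction in any alternative that gave a value. Leaving out 1 library at a time gave 6 to 13 risen and 1 to 3 fallen matrix genes in ICH against Sham, 0 risen and 1 to 5 fallen in EDB against ICH, and 0 to 3 risen and 1 to 4 fallen in EDB against Sham. Over all genes these fits called 1769 to 2624, 8 to 321 and 508 to 1661, in place of 2670, 98 and 1094, with the highest of these counts in both EDB comparisons without Sham 2. With library totals only, 1 matrix gene fell in ICH against Sham. RLE scaling gave 2 fallen in EDB against Sham. DESeq2 gave 7 fallen and 1 risen (Col8a2) in EDB against ICH and 2 fallen and 3 risen (Col8a1, Col9a3 and Thbs2) in EDB against Sham, and called 696 and 1796 of all genes. Limma-voom called 182 in EDB against ICH. With only the 6 libraries compared, 1 matrix gene fell in EDB against ICH. With the replicate block 1 matrix gene and 58 of all genes were called there. Deviations from the group means were correlated between libraries of different groups. Correlations ran from -0.311 to 0.245 for same-numbered libraries and from -0.23 to 0.332 for differently numbered ones. With 3 libraries per group this cannot exclude a pairing. Without EDB 1 and EDB 3 there were 14 risen matrix genes in ICH against Sham, 0 fallen matrix genes and 6 calls in EDB against ICH, and 378 calls in EDB against Sham.

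Sign changes touched only values that were not called in the fit reported. In EDB against Sham, Lamc1 was 0.0134 with library totals only, Lama2 -0.0521 with limma-voom, and Col1a1 -0.0220 and Lama2 -0.0296 with the replicate block. Without EDB 1 and EDB 3, Col1a1 was -0.41, Col1a2 -0.15, Col3a1 -0.33, Col4a1 -0.10, Fn1 -0.09, Lama2 -0.57, Tnc -0.55 and Tnr 0.22 in EDB against Sham, and Lama2 -0.34 in EDB against ICH. Leaving out 1 library, the ranges that crossed 0 in EDB against Sham were -0.70 to 0.92 for Col1a1, -0.12 to 0.82 for Col1a2, -0.49 to 0.68 for Col3a1, -0.08 to 0.10 for Col4a1, -0.19 to 0.29 for Fn1, -0.49 to 0.28 for Lama2, -0.0578 to 0.0578 for Lamc1, -0.64 to 0.71 for Tnc and -0.21 to 0.13 for Tnr. In EDB against ICH they were -0.17 to 0.0318 for Bcan, -1.63 to 0.51 for Col1a1, -0.89 to 0.28 for Col1a2 (-0.92 without EDB 1 and EDB 3) and -0.26 to 0.51 for Lama2, and in ICH against Sham -0.0003 to 1.24 for Col1a1 and -0.0385 to 0.36 for Lamb1. The causes were not tested. Postn was removed by the filter of 1 CPM in 3 libraries and had no adjusted p in DESeq2, so it has no value in either. Genes at a few CPM, such as Acan, Lum and Dcn, had SEs of 0.46 or more, so that only large changes could be called.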
